A study of Mus musculus with 7 samples.

Results

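The 10 genes described here, Mki67, Top2a, Ccna2, Ccnb1, Ccnb2, Ccnd1, Ccne1, Birc5, Mcm5 and Mcm6, are widely used markers of dividing cells, and their mRNA was measured in livers of fasted mice. They were found by name among the non-control probes of a single-colour Agilent mouse array, where 16 of 55681 probes and 10 of 36492 gene names carried them. The study compared 3 wild-type (WT) C57BL/6 mice with 4 SHIVA mice, which carry a Sox17 mutation on the same C57BL/6 background. SHIVA arose by chemical mutagenesis and was backcrossed. According to the methods the animals are heterozygous for a missense change, methionine to arginine, in the HMG domain with which the transcription factor Sox17 binds DNA. All 7 animals were females of 8 to 12 weeks fasted for 24 h, and the RNA of each liver was hybridized to an array of its own. The change is in the germline and so not limited to the liver, and fed livers were not analysed here. In SHIVA livers the mean log2 signals of Mki67, Ccna2, Ccnb2, Mcm5 and Mcm6 were 0.65 to 1.10 higher than in WT livers, those of Ccnd1, Ccne1 and Birc5 differed by less than the spread between mice, and Top2a and Ccnb1 were near background. None of the 8 members tested passed the test over all genes (limma), which 0.375% of all genes did, and 1 SHIVA liver carried the highest values of most members.

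A cell that enters division passes through a fixed order of gene programs. Growth signals raise D-type cyclins, E-type cyclins open the way to DNA synthesis, the MCM helicase is loaded at replication origins, and A- and B-type cyclins then drive DNA replication and mitosis. The genes of the first steps are switched on by E2F factors through E2F sites, while many mitotic genes carry CCAAT boxes and a TTTGAA element (the cell cycle genes homology region). Most hepatocytes of an adult liver rest outside the cycle, and in such tissue these mRNAs are scarce. In whole-tissue RNA, fewer cells of a type and less RNA per cell cannot be told apart.

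The sequences below show the promoters of 4 members whose log2 signals were higher in SHIVA livers and are given to show which of these elements they hold. RefSeq promoter windows of 300 bases, from 250 before to 50 after the annotated start, were matched by symbol for 8 of the 10 members, all except Ccna2 and Ccnd1. Capitals mark 3 kinds of motif on either strand: the box CCAAT, the element TTTGAA, and E2F words. The E2F words searched began with TTGGCGC as the reference form, followed by TTCCCGC as the next form, then by TTCGCGC and finally by TTGCCGC in turn. All are written as they read on the strand of the gene, where a box on the other strand appears reversed, for example as ATTGG. Neighbouring E2F words can overlap, and the reversed word GCGCCAA can share its last letters with a box.
Ccnb2 promoter, GRCm38.p6 chr9:70421505-70421804, minus strand: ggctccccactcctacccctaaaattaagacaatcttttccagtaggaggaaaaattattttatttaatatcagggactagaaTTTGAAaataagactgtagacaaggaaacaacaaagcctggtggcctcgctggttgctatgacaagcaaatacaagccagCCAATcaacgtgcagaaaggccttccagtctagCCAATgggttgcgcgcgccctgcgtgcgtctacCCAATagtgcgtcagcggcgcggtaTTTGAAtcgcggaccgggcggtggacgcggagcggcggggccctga
Mki67 promoter, GRCm38.p6 chr7:135716330-135716629, minus strand: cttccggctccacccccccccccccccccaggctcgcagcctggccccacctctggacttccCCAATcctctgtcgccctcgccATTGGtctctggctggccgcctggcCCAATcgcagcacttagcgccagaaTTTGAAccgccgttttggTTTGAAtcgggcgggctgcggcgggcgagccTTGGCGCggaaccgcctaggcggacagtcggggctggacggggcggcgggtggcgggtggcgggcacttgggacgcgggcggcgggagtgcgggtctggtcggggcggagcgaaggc
Mcm5 promoter, GRCm38.p6 chr8:75109259-75109558, plus strand: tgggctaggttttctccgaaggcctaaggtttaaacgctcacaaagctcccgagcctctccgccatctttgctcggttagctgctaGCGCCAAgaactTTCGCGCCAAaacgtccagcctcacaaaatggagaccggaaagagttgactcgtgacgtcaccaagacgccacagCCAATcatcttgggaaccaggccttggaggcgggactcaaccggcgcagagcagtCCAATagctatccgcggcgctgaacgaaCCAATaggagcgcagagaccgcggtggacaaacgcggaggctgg
Mcm6 promoter, GRCm38.p6 chr1:128359656-128359955, minus strand: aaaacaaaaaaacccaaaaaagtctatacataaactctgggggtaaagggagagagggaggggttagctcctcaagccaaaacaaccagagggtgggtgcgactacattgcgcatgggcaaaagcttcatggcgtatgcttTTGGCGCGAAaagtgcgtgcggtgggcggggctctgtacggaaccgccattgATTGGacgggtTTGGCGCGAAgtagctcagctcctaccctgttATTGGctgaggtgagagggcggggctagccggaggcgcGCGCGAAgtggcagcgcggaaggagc

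The Ccnb2 window held 3 CCAAT and 2 TTTGAA matches, and the Mki67 window 3 CCAAT, 2 TTTGAA and 1 E2F match. The Mcm5 and Mcm6 windows held no TTTGAA. They had 3 and 2 CCAAT matches and 3 and 5 E2F matches, respectively. Of all 32851 RefSeq windows of this length, 37.4% held CCAAT, 17.9% TTTGAA, 9.57% an E2F word and 6.95% both CCAAT and TTTGAA. Top2a, whose transcript was at background in most livers, had 6 CCAAT and 2 TTTGAA matches, and Ccnb1, likewise near background, had 2 CCAAT and 1 E2F match. The windows of Birc5 and Ccne1 contained none of these letters. Matches are a description of sequence and say nothing of binding in these livers.

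The probe sequences that follow show what the arrays read for members of the mitotic group. The 60-base probes were designed on the transcript strand and are given as in the files. The Mki67 probe is the second of 2 that gave like values, the Top2a probe is its only one, and the Ccnb1 probe is a dimmer one that was above background on no array, not the one whose values are given for Ccnb1.
Mki67 probe, mm9 chr7:142884764-142884823, minus strand: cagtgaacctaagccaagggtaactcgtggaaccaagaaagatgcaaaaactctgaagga
Top2a probe, mm9 chr11:98855522-98855581, minus strand: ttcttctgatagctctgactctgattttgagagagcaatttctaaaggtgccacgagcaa
Ccnb1 probe, mm9 chr13:101551224-101551283, minus strand: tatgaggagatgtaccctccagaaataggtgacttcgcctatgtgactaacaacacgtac

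Signals are given as log2 of the scanner's processed intensity after quantile normalization over the 7 arrays, so that 1 unit is a doubling of intensity. They compare livers for 1 probe and not probes with each other. A gene entered the test when 3 or more of the 7 arrays read its brightest probe well above background. Of the 10 members 8 met this, while Top2a and Ccnb1 did not. Differences were fitted with limma across 20012 genes, and passing the test means an adjusted p (Benjamini-Hochberg) below 0.05. Between 44.5% and 48.8% of probes per array were well above background and no spot was saturated. Position on the slide cannot be told apart from genotype, because WT filled row 1 and SHIVA row 2. Sox17 itself had a log2 signal of 4.53, 3.42 and 3.93 in WT and 4.63, 4.47, 4.77 and 4.71 in SHIVA livers (log2 fold change 0.69, adjusted p = 0.28), with overlapping groups.

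Of the 20012 genes 75 (0.375%) passed the test, and of the 8 members 0. At an unadjusted p under 0.05 limma gave 5 of 8 members, all higher in SHIVA livers, against 7.24% of all genes in that direction, and the methods' t-test gave 1. In 4 of 8 members, Mki67, Ccna2, Ccnb2 and Mcm6, every SHIVA liver lay above every WT liver, which held for 6.15% of all genes. No member showed the reverse, which held for 6.02%. The fitted value was higher in SHIVA livers for 6 of 8 members and for 48.8% of all genes. The median log2 fold change was 0.73 over the 8 members and -0.01 over all genes tested.

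**Figure D1:**
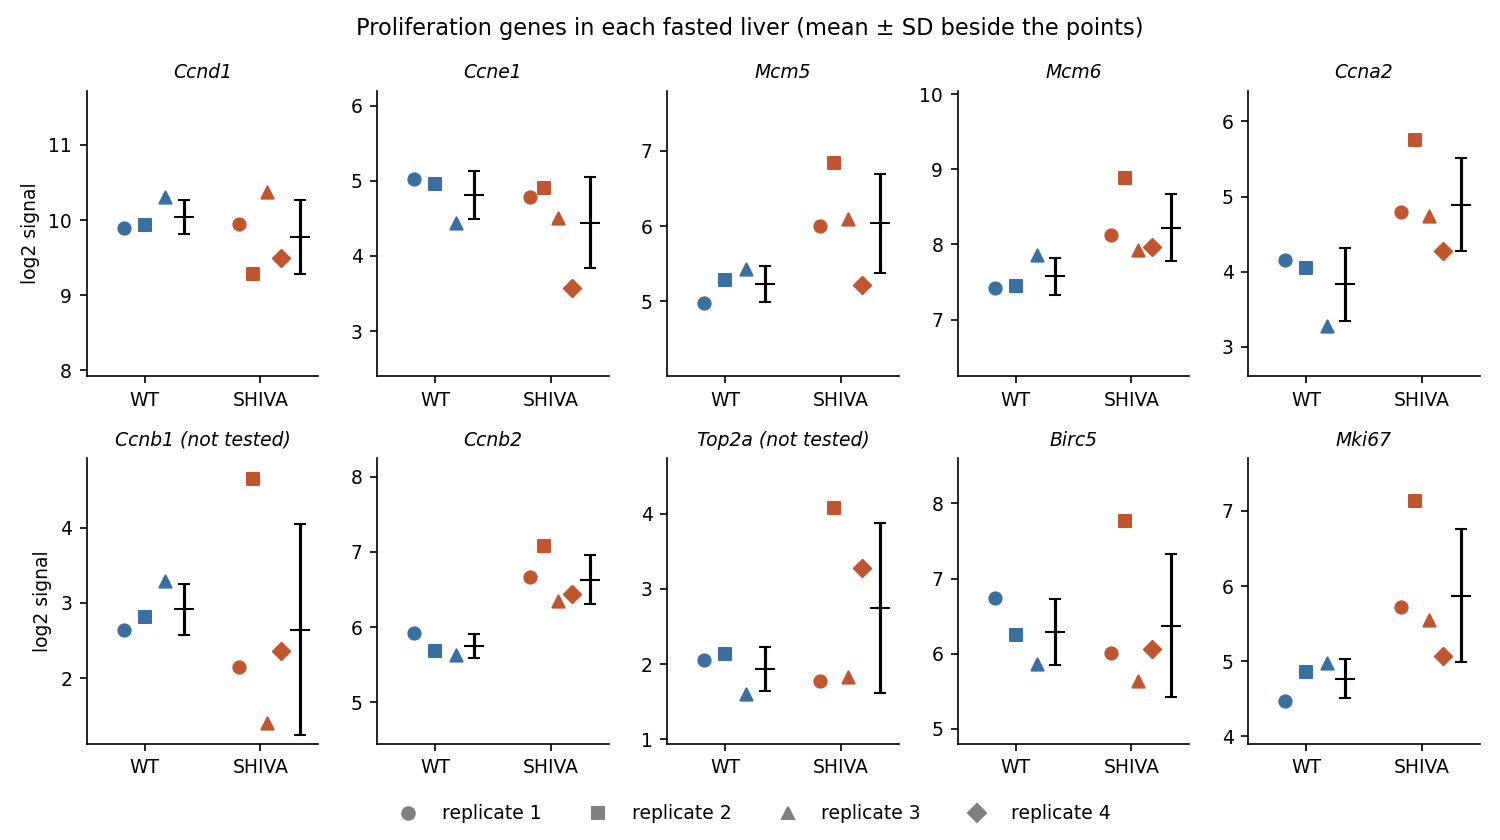
Log2 signal (y axis, the same span in every panel) of the brightest probe of each of the 10 genes in 3 WT (blue) and 4 SHIVA (orange) livers, with symbols for the replicate number and the mean ± SD beside the points. Mki67, Ccna2, Ccnb2 and Mcm6 have all SHIVA points above all WT points, and SHIVA replicate 2 is the highest of the 7 livers in 8 of the 10 panels.

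Ccnd1, the D-type cyclin that growth signals induce, was read on chromosome 7 (mm9 chr7:152116202-152116261). Its log2 signal was 9.90, 9.93 and 10.31 in WT livers and 9.95, 9.28, 10.37 and 9.50 in SHIVA livers. The groups overlapped throughout, and SHIVA replicate 2 was the lowest of all 7, the opposite of its place for most members. The log2 fold change was -0.27 (standard error, SE, 0.27, 95% interval -0.87 to 0.34, limma adjusted p = 0.726). It was -0.10 without SHIVA replicate 2, -0.14 without WT replicate 3, -0.18 without SHIVA replicate 4 and -0.47 without SHIVA replicate 3.

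Ccne1, the E-type cyclin of entry into DNA synthesis, was read at chr7:38882937-38882960 in mm9. The files place its 60-base probe over this shorter stretch. Its log2 signal was 5.03, 4.95 and 4.44 in WT livers and 4.78, 4.90, 4.51 and 3.57 in SHIVA livers. SHIVA replicate 4, the lowest, was not above background, and the other SHIVA livers lay within the WT range. SHIVA over WT gave a log2 fold change of -0.37 (SE 0.32, limma adjusted p = 0.685) and -0.08 without SHIVA replicate 4 or -0.55 without WT replicate 3. A second Ccne1 probe was above background on no array.

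Mcm5 and Mcm6 encode subunits of the hexameric MCM helicase that is loaded on replication origins before DNA synthesis. The Mcm5 probe (mm9 chr8:77651350-77651410) gave 4.97, 5.29 and 5.43 in WT livers and 6.01, 6.83, 6.09 and 5.22 in SHIVA livers, on the log2 signal scale. All SHIVA livers but replicate 4, which lay inside the WT range, were above all WT livers. Mcm5 had a log2 fold change of 0.81 (SE 0.33, unadjusted p = 0.0401, limma adjusted p = 0.348).

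The Mcm6 probe (mm9 chr1:130228178-130228237) gave log2 signals of 7.42, 7.44 and 7.86 in WT livers and 8.12, 8.88, 7.92 and 7.97 in SHIVA livers. All SHIVA livers were above all WT livers, but the gap between the lowest SHIVA and the highest WT liver was small beside the spread within the groups. In the fit Mcm6 had a log2 fold change of 0.65 (SE 0.25, limma adjusted p = 0.318), a 1.57-fold higher mean.

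Ccna2, cyclin A2, acts in DNA synthesis and in entry into mitosis. Its probe (mm9 chr3:36463978-36464037) gave 4.16, 4.06 and 3.28 in WT livers, where it was above background on 2 of 3 arrays, and 4.80, 5.75, 4.75 and 4.27 in SHIVA livers. The groups did not overlap, with WT replicate 1 and SHIVA replicate 4 nearest to each other. For Ccna2 the fit gave a log2 fold change of 1.06 (SE 0.35, 95% interval 0.26 to 1.87, limma adjusted p = 0.253).

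Ccnb2, a B-type cyclin that works with Cdk1 in mitosis and whose promoter is printed above, had the smallest SE of the tested members. Its probe (mm9 chr9:70255671-70255730) gave log2 signals of 5.93, 5.68 and 5.62 in WT livers and 6.67, 7.08, 6.34 and 6.44 in SHIVA livers. The log2 fold change was 0.89 (SE 0.20, 95% interval 0.43 to 1.35), or 1.85-fold. Its unadjusted p of 0.00189 from limma became 0.133 after adjustment over all genes, the smallest adjusted p among the members.

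Ccnb1, the other mitotic B-type cyclin listed, has 3 probes, and its brightest was above background in SHIVA replicate 2 alone. That probe read 2.64, 2.81 and 3.29 in WT livers and 2.15, 4.65, 1.40 and 2.36 in SHIVA livers on the log2 signal scale. Apart from SHIVA replicate 2 every value was at background, so no change of Ccnb1 could be measured in either direction.

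Top2a, the topoisomerase that untangles DNA before chromosomes separate, showed the same picture with 1 probe. Its log2 signal was 2.06, 2.14 and 1.60 in WT livers and 1.77, 4.08, 1.83 and 3.28 in SHIVA livers, and it was above background in SHIVA replicate 2 alone. All other values were at background, so no fold is given and Top2a was not tested.

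Birc5 encodes survivin, a subunit of the chromosomal passenger complex that guides chromosome attachment. Its brightest probe (mm9 chr11:117716978-117717037) gave log2 signals of 6.74, 6.25 and 5.86 in WT livers and 6.01, 7.77, 5.64 and 6.07 in SHIVA livers. SHIVA replicate 2 was the highest and SHIVA replicate 3 the lowest of the 7 livers. For Birc5 this left a log2 fold change of 0.09 (SE 0.48, limma adjusted p = 0.96) and ranged from -0.38 without SHIVA replicate 2 to 0.33 without SHIVA replicate 3. A dimmer Birc5 probe had the same outlying liver, with 4.04, 3.46 and 4.10 in WT and 3.53, 5.36, 3.06 and 3.72 in SHIVA livers, and the third probe was above background on no array.

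Mki67 encodes Ki-67, the protein that coats mitotic chromosomes and is the routine stain for dividing cells. Its brightest probe (mm9 chr7:142881591-142881650) gave log2 signals of 4.48, 4.86 and 4.98 in WT livers and 5.73, 7.13, 5.55 and 5.08 in SHIVA livers. The second probe, whose sequence is printed above, gave 4.77, 4.57 and 4.66 in WT livers and 5.75, 7.08, 5.20 and 5.17 in SHIVA livers. Both probes put every SHIVA liver above every WT liver and SHIVA replicate 2 highest. The log2 fold change was 1.10 by the first probe (SE 0.43, 95% interval 0.12 to 2.08, limma adjusted p = 0.318) and 1.13 by the second. The fitted difference of the first probe fell to 0.68 without SHIVA replicate 2, so that this liver moved it by more than 1.5 times.

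**Figure D2:**
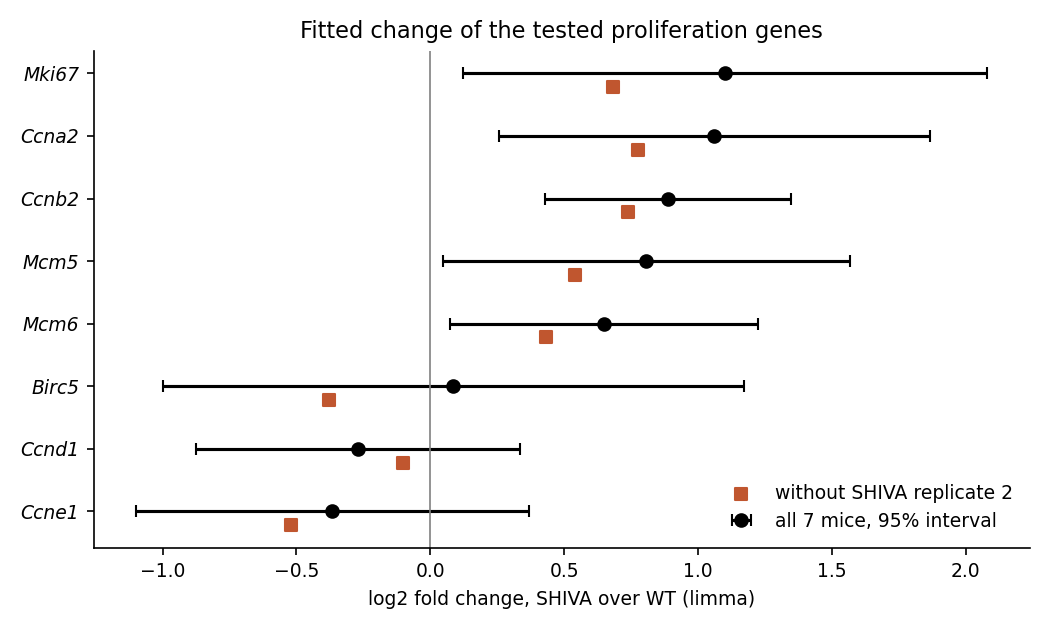
Fitted log2 fold change of SHIVA over WT (x axis, limma) for the 8 tested genes, as black points with 95% intervals from all 7 mice and orange squares for the fit without SHIVA replicate 2. The intervals of Mki67, Ccna2, Ccnb2, Mcm5 and Mcm6 lie above 0 before adjustment over all genes, their squares stay between 0.43 and 0.78, and the square of Birc5 lies on the other side of 0.

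One liver, SHIVA replicate 2, was the highest of the 7 in 6 of 8 tested members, against 20.3% of all genes tested. The fits without it gave log2 fold changes of 0.68 for Mki67, 0.78 for Ccna2, 0.74 for Ccnb2, 0.54 for Mcm5 and 0.43 for Mcm6. Of these 5, 4 had an unadjusted p under 0.05 and the adjusted p values lay between 0.192 and 0.465 in limma. The same 4 members kept every SHIVA liver above every WT liver, which had to follow because leaving out a liver cannot undo it. Over all genes the share without that liver was 8.3%. The median over the 8 members was 0.49. Besides SHIVA replicate 2, the order among the other SHIVA livers was not fixed, since SHIVA replicate 4 was the lowest SHIVA liver for Mki67, Ccna2 and Mcm5 and SHIVA replicate 3 for Ccnb2 and Mcm6.

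As a description over 7 arrays, which share genotype and, in SHIVA replicate 2, a single high liver, the 5 higher members varied together. Pearson's r between their log2 signals lay between 0.76 and 0.97 over 10 pairs, with Mki67 and Mcm5 at 0.97, Mki67 and Mcm6 at 0.96 and Ccna2 and Ccnb2 at 0.92. Ccnd1 ran the other way, with r between -0.62 and -0.28 to the same 5 and -0.78 to Birc5. The mean centred log2 signal of the 6 tested members of DNA replication and mitosis, Mki67, Ccna2, Ccnb2, Birc5, Mcm5 and Mcm6, was -0.39, -0.41 and -0.50 in WT livers and 0.21, 1.23, 0.04 and -0.17 in SHIVA livers. All SHIVA livers were above all WT livers on this mean, and SHIVA replicate 2 stood far above the rest. The mean leaves out Ccnd1 and Ccne1, the tested members with lower fitted values in SHIVA livers. It includes Mki67, Ccna2, Ccnb2 and Mcm6, which had no overlap by themselves. The separation therefore does not stand for all tested members.

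Outside the members, the 5 tested genes whose log2 signals followed this mean most closely over the 7 arrays were Cdca5 (r = 0.99), the transcript ENSMUST00000091745 (0.98), H2ac4 (0.98), Smchd1 (0.98) and Dhx40 (0.98). Cdca5 encodes sororin, which holds sister chromatids together, and H2ac4 a replication-dependent histone H2A. Cdca5 had log2 signals of 3.46, 3.55 and 3.62 in WT livers and 4.41, 5.89, 3.93 and 3.84 in SHIVA livers. H2ac4 had 5.93, 6.16 and 5.80 in WT livers and 6.79, 7.58, 6.46 and 6.33 in SHIVA livers. Both had no overlap between the genotypes, with SHIVA replicate 2 highest, and were chosen by their likeness to the members.

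The wider cell cycle and growth control were described with 152 further genes in 8 lists by role, all on the array and 119 tested. Of these 1, from the list of growth factors, receptors and early growth genes, passed the test, and the median log2 fold change was 0.14. SHIVA replicate 2 was the highest liver in 56 of the 119, against 20.3% of all genes. Every SHIVA liver lay above every WT liver in 11 (9.24%, against 6.15% of all genes) and below in 3 (2.52%, against 6.02%). At an unadjusted p under 0.05 limma gave 20 of the 119 (16.8%), close to the 13.3% of all genes, and 15 of them (12.6%, against 7.24%) were higher in SHIVA livers. The 15 include Uhrf1, of the replication list, which was above background in no WT liver and entered the test through SHIVA livers. Cdkn2a entered in the same way but is not among the 15, and E2f8, a lower gene, entered through the WT livers. These counts and medians therefore lean in part on the filter.

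Among 25 tested replication genes the median log2 fold change was 0.19, with 20 positive, 4 without overlap higher and 1 lower. SHIVA replicate 2 was the highest liver in 16 of the 25 (64.0%), against 20.3% of all genes, and without it the median was 0.09. Pola1, the catalytic subunit of DNA polymerase alpha, had log2 signals of 4.23, 2.28 and 4.19 in WT livers and 4.72, 4.30, 4.70 and 4.54 in SHIVA livers (log2 fold change 1.00, limma adjusted p = 0.374, and 0.36 without WT replicate 2, where it was lowest). Gins2, a subunit of the helicase partner GINS, had 3.48, 4.16 and 4.59 in WT livers and 4.80, 5.49, 4.95 and 5.03 in SHIVA livers (log2 fold change 0.99, limma adjusted p = 0.203). Both were above background on 2 of 3 WT and on all 4 SHIVA arrays.

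The other subunits of the MCM hexamer were named here after their values were seen, and they lay on both sides of 0. The log2 fold change was 0.09 for Mcm2, 0.49 for Mcm3, 0.36 for Mcm4 and -0.26 for Mcm7, and the adjusted p of limma lay at 0.379 or above for all of them. Mcm3 had every SHIVA liver above every WT liver. Mcm7 had every SHIVA liver below, with 9.49, 9.75 and 9.57 in WT livers and 9.38, 9.37, 9.34 and 9.28 in SHIVA livers. Single mice decided the small values: the difference of Mcm2 ranged from -0.09 without SHIVA replicate 3 to 0.37 without SHIVA replicate 4, Mcm3 had 0.32 without SHIVA replicate 2, and Mcm4 had 0.12 without WT replicate 1 and 0.24 without SHIVA replicate 2. Mcm10, a replication factor outside the hexamer, had 9.03, 8.89 and 9.08 in WT livers and 10.21, 10.18, 9.86 and 9.56 in SHIVA livers (log2 fold change 0.95, limma adjusted p = 0.101).

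Of 39 mitosis and spindle genes 18 were too dim to test, and none of the other 21 separated the genotypes. Their median log2 fold change was 0.31 with 16 of 21 positive, and 19 of 21 (90.5%) were highest in SHIVA replicate 2. Without that liver the median was 0.04. Plk1, the mitotic kinase, had log2 signals of 4.23, 4.46 and 4.66 in WT livers and 4.31, 6.07, 4.72 and 4.58 in SHIVA livers, and Cdca8, a partner of Birc5, had 4.35, 5.41 and 5.36 in WT and 5.36, 6.73, 5.04 and 5.34 in SHIVA livers. These 2 examples were chosen after their values were seen. Apart from SHIVA replicate 2 both genotypes spanned about the same levels.

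**Figure D3:**
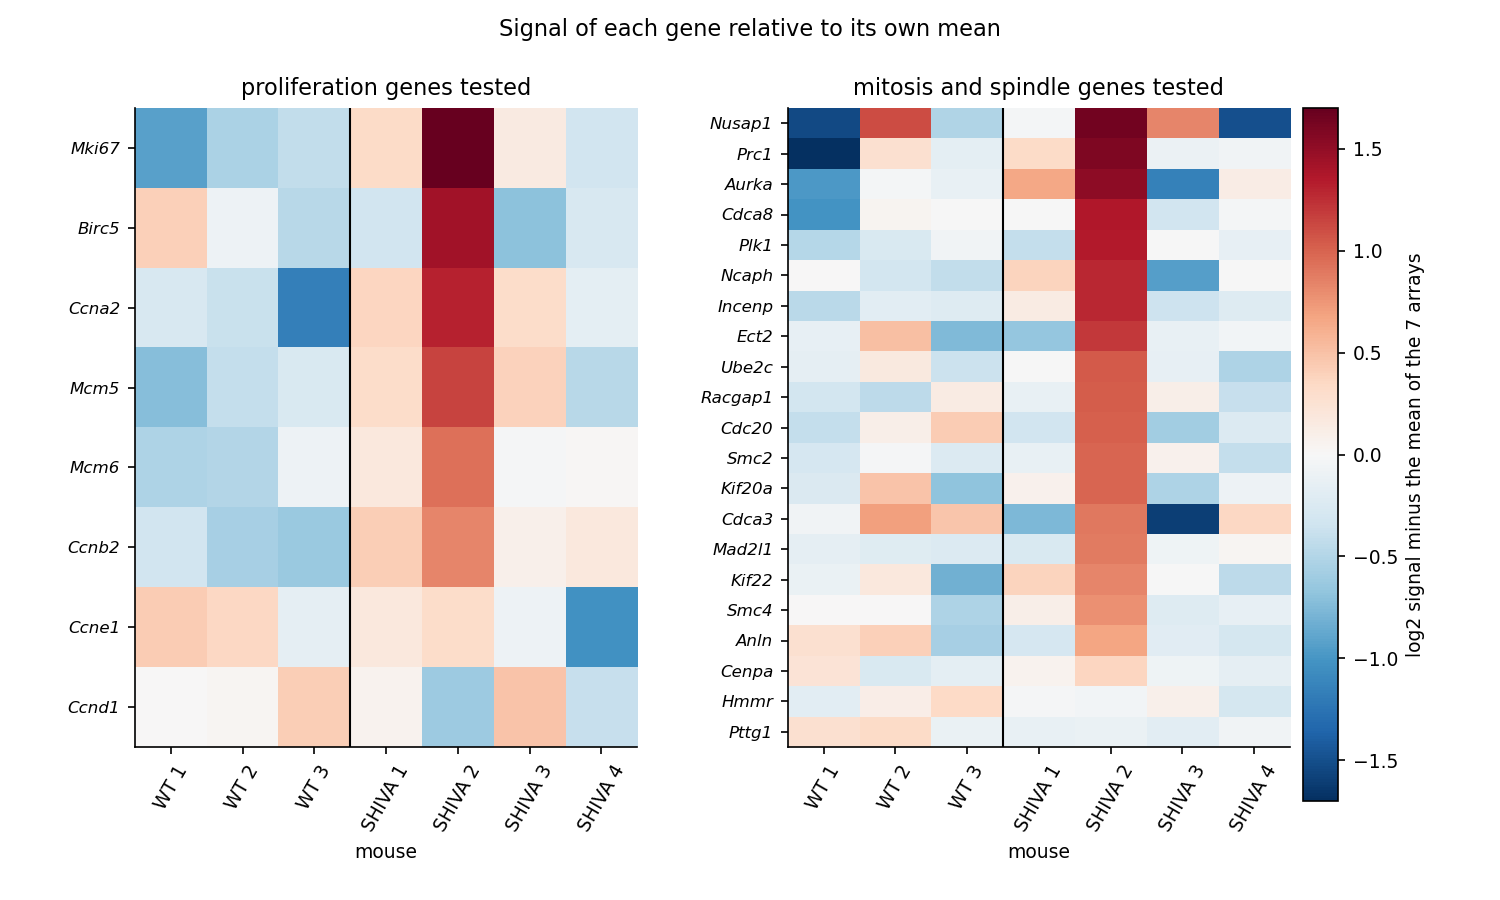
Log2 signal of each gene minus its mean over the 7 arrays (colour, red above and blue below the mean), with mice in columns and genes in rows, for the 8 tested proliferation genes and the 21 tested mitosis and spindle genes. The column of SHIVA replicate 2 is the reddest in both panels, in 6 of 8 and in 19 of 21 genes, while Ccnd1 is blue there.

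Of the 12 tested regulators upstream of the members none passed the test, and their fitted values lay on both sides of 0. E2f2, an activating E2F, had log2 signals of 4.65, 5.02 and 5.53 in WT livers and 6.13, 6.49, 6.15 and 5.54 in SHIVA livers (log2 fold change 1.01, limma adjusted p = 0.189). E2f8, a repressing E2F, had 4.08, 5.40 and 4.86 in WT livers and 3.63, 4.04, 3.25 and 2.80 in SHIVA livers. It entered the test through the WT livers and was above background on 1 of 4 SHIVA arrays, so no fold is given. In both genes the values of the genotypes did not overlap. The median log2 fold change over the 12 was 0.08, with 1 gene without overlap higher and 2 lower, and Foxm1, the mitotic activator, was too dim to test.

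The remaining lists lay near 0. The 9 tested cyclins and cyclin-dependent kinases outside the members had a median log2 fold change of 0.05 with no gene separating the genotypes, and Cdk1, the mitotic kinase, was too dim to test. The 6 tested genes of nucleotide supply had a median of 0.07, also with no gene separating them. Among 13 inhibitors and pocket proteins the median was 0.06, and the 2 genes without overlap were both higher in SHIVA livers.

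Those 2 genes were Pkmyt1, a kinase that holds Cdk1 inactive, and Btg2, an antiproliferative gene. Pkmyt1 had log2 signals of 4.44, 4.26 and 4.70 in WT livers and 5.16, 6.68, 5.01 and 4.80 in SHIVA livers (log2 fold change 0.95, limma adjusted p = 0.374, and 0.53 without SHIVA replicate 2). Btg2 had 8.55, 8.27 and 8.50 in WT livers and 8.80, 8.89, 9.05 and 9.72 in SHIVA livers (log2 fold change 0.68, limma adjusted p = 0.262). Pkmyt1 was highest in SHIVA replicate 2 like most members, and Btg2 in SHIVA replicate 4.

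Cdkn1a, the inhibitor p21, had the largest negative value of that list and was named after this was seen. It had log2 signals of 10.63, 10.98 and 8.92 in WT livers and 7.88, 8.37, 9.13 and 9.11 in SHIVA livers (log2 fold change -1.55, SE 0.51, limma adjusted p = 0.249). WT replicate 3 lay within the SHIVA range, so the groups overlapped. The 13 genes of p53 and growth arrest had a median of -0.01, and in 1 of them, the stress kinase gene Plk3, the genotypes did not overlap. Plk3 had 9.35, 9.77 and 9.89 in WT livers and 10.66, 11.08, 10.49 and 10.39 in SHIVA livers (log2 fold change 0.98, limma adjusted p = 0.122).

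The single gene of the 119 that passed the test was Ccn2, a matricellular growth factor gene (connective tissue growth factor). Its log2 signal was 8.47, 7.72 and 8.16 in WT livers and 9.48, 9.42, 10.02 and 9.95 in SHIVA livers. The fitted log2 difference was 1.60 (SE 0.23, limma adjusted p = 0.038). Of the 7 fits that each dropped 1 mouse, Ccn2 passed in 1, the one without WT replicate 3. Fos, an immediate early gene of the same list, had 3.73, 2.12 and 4.46 in WT livers and 4.81, 6.03, 5.16 and 6.29 in SHIVA livers (log2 fold change 2.13, limma adjusted p = 0.182). The list of 20 tested growth factors, receptors and early growth genes had a median of 0.19, and 2 of 20 were highest in SHIVA replicate 2.

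**Figure D4:**
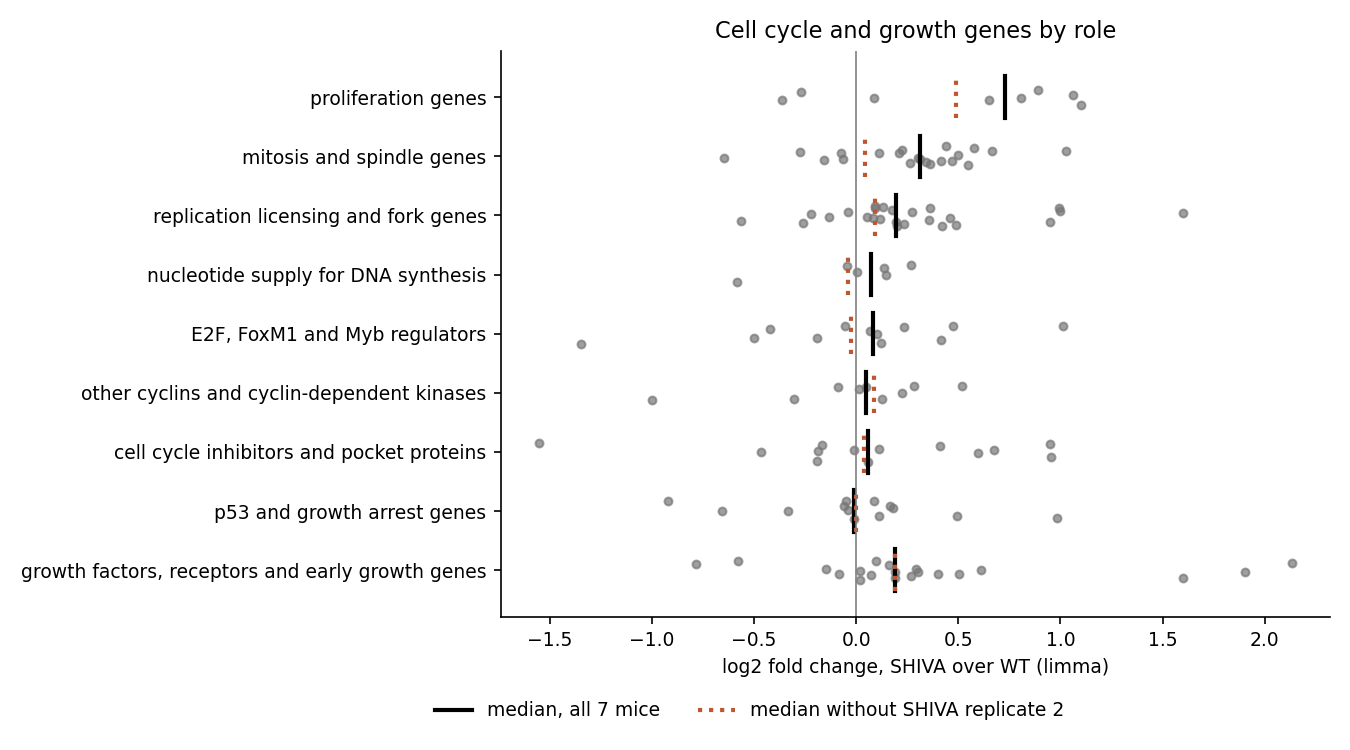
Fitted log2 fold change of SHIVA over WT (x axis, limma) for each tested gene (grey points) of the proliferation genes and the 8 lists by role, with the median of all 7 mice as a black bar and the median without SHIVA replicate 2 as a dotted orange bar. The median of the proliferation genes moves from 0.73 to 0.49 and that of the mitosis genes from 0.31 to 0.04, while the growth list stays near 0.19.

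Markers of other cells were read beside the members, since a liver extract also holds their RNA. The 8 Kupffer cell and macrophage markers were all positive by log2 fold change with a median of 0.35, none passed the test, and 7 of 8 were highest in SHIVA replicate 2. Their summed intensity ranged from 16520 to 35040 in WT and from 23010 to 51830 in SHIVA livers, highest in SHIVA replicate 2. Marco, a macrophage scavenger receptor with the largest fitted change of the list, had log2 signals of 10.19, 9.38 and 11.94 in WT livers and 12.53, 12.81, 11.68 and 11.16 in SHIVA livers (log2 fold change 1.54, limma adjusted p = 0.323, and 0.98 without WT replicate 2). Adgre1 had a log2 fold change of 0.78, which was 0.42 without WT replicate 2 and 1.18 without WT replicate 3, and Cd5l one of 0.66, which was 0.38 without WT replicate 2 and 0.36 without SHIVA replicate 2. Clec4f, the defining Kupffer cell marker, had a log2 fold change of 0.09 and was the 1 marker of the 8 not highest in SHIVA replicate 2. In all 4 the groups overlapped. The markers given by name here and in the next paragraphs were chosen after their values were seen.

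The 7 neutrophil and granule markers on the array had a median log2 fold change of 1.13, with 6 of 7 positive and none called. Mpo, Ltf and Ngp were above background in no WT liver and entered the test only through SHIVA livers. The median and the count of positive markers therefore lean on the filter. Their summed intensity was 994.6 to 1810 in WT livers and 956 to 2925 in SHIVA livers, high in SHIVA replicates 1 to 3 and lowest in SHIVA replicate 4. Mpo, the granule enzyme of neutrophil precursors, was not above background in any WT liver or in SHIVA replicate 4 and had log2 signals of 6.19, 6.98 and 6.81 in the other 3 SHIVA livers. The part of these markers in the results on the members was not tested.

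The summed intensity of 7 erythroid markers separated the genotypes, as did the mean of the 6 members of DNA replication and mitosis. Most of that erythroid sum came from Alas2, its brightest marker. It was 1112, 1138 and 1401 in WT livers and 1743, 1458, 2022 and 1547 in SHIVA livers, highest in SHIVA replicate 3. Alas2, the first enzyme of heme synthesis in red cell precursors, had log2 signals of 9.51, 9.63 and 10.02 in WT livers and 10.38, 10.11, 10.72 and 10.20 in SHIVA livers (log2 fold change 0.63, limma adjusted p = 0.237), without overlap. Of the 7 markers 4 were tested, with 3 positive and none highest in SHIVA replicate 2, and Gata1 and Rhag were above background on no array. The other tested markers overlapped between the genotypes, with log2 fold changes of 0.35 for Slc4a1, 0.15 for Klf1 and -0.17 for Epor. The part of these markers in the results on the members was not tested either.

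Hepatocyte markers summed to between 854500 and 925600 in WT and between 841900 and 911400 in SHIVA livers, with overlapping groups. Of the 7 markers 1, Ttr, had every SHIVA liver below every WT liver (log2 fold change -0.32, limma adjusted p = 0.364), as did 6.02% of all genes. The lymphocyte sum was 6061 to 8946 in WT and 5389 to 8579 in SHIVA livers. Endothelial markers summed to 16150 to 19400 in WT and 13950 to 16420 in SHIVA livers. The stellate cell sum was 13100 to 14510 in WT and 6881 to 13990 in SHIVA livers. SHIVA replicate 2 was the lowest of the 7 livers in the hepatocyte, lymphocyte, endothelial and stellate sums. The median log2 fold change was 0.04 for the 8 stellate cell markers and -0.45 for the 6 tested bile duct markers, and no marker of the lists given here passed the test. Among the stellate markers the genotypes did not overlap in Rgs5, higher in SHIVA livers (0.67, limma adjusted p = 0.194), and in Des, lower (-0.24, limma adjusted p = 0.505).

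**Figure D5:**
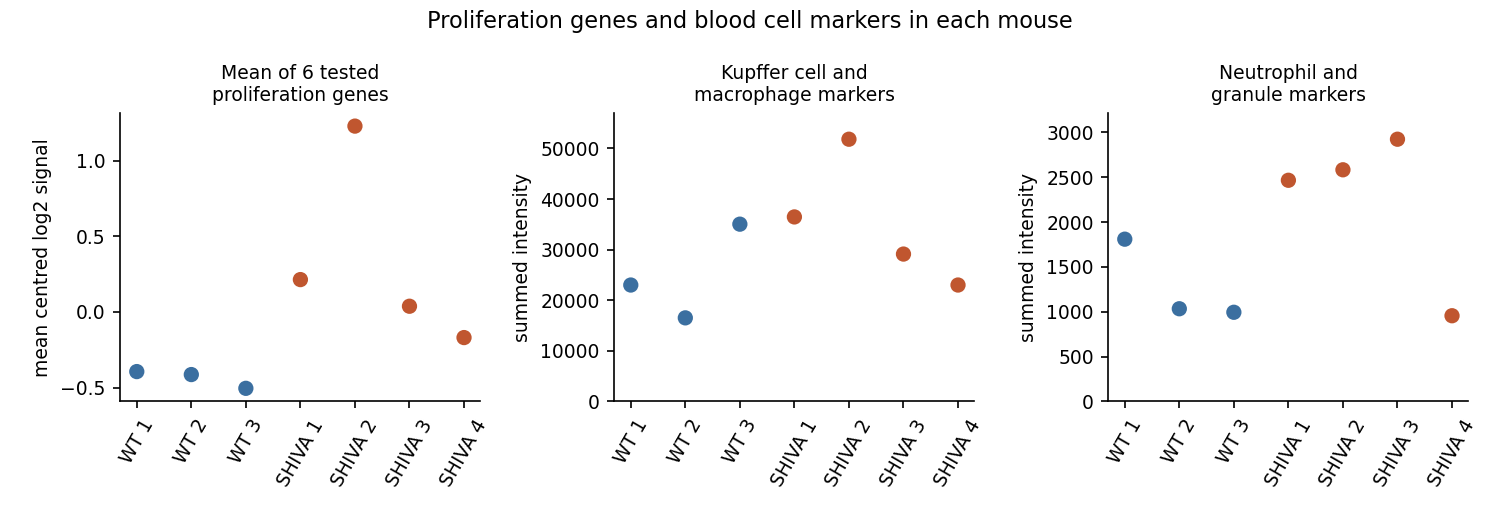
Mean centred log2 signal of the 6 tested genes of DNA replication and mitosis (left), summed intensity of Kupffer cell and macrophage markers (middle) and of neutrophil and granule markers (right) in each liver, WT in blue and SHIVA in orange. SHIVA replicate 2 is highest on the left and in the middle, and SHIVA replicate 4, the lowest SHIVA liver on the left, has the lowest neutrophil sum.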

How the data were processed

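RNA of 3 WT and 4 SHIVA livers was measured on single-colour arrays, 1 per mouse. The authors deposited the scanner intensity of each spot, from Agilent Feature Extraction 10.5.1.1 (per the submitters' processing notes), and a table of log2 values that their methods describe as quantile normalized in R. Spots with outlier flags were left out. In limma 3.58.1 (R 4.3.3) the processed intensities were quantile normalized, logged to base 2 and averaged over the spots of a probe, and each gene was read from its brightest probe on average. Moderated linear models (limma, lmFit and eBayes) gave p-values adjusted over all 20012 genes tested. On simulated data of 19971 genes, the fit called 89.5% of the 200 genes given a log2 change of 2. That change is larger than any fitted for a member, at most 1.10, so the share does not describe the power for the members. The number of arrays limits the precision. Probe positions are mm9, and names were updated through RefSeq.

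The members and lists were chosen with earlier results of these data known. Named besides the members were Sox17, in each cell cycle or growth list the called genes and the 2 non-overlapping genes with the largest change, and the 5 genes most alike by correlation. Other genes were chosen after their values were seen. Alternatives were the mean signal, scaling to the 75th percentile, normexp with an offset of 50, the authors' table, 2 other filters, the mean of all probes, array weights, the replicate block, single mice left out, the methods' t-test and single probes. The value of 1 marker is not reported here.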

Additional observations from a re-analysis of the deposited data

Results flagged for a closer look

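Among the SHIVA livers replicate 4 had a mean log2 signal of the neutrophil and granule markers of 4.68, and the other 3 had 7.56 to 7.99. This gap exceeded Dixon's critical value for 4 samples. It was the only 1 of 18 such searches over the members and the marker lists that did, where chance gives about 1 in 20. SHIVA replicate 2 did not exceed that value for any of the 10 members, including Birc5 and Mcm6, where it stood farthest from the other SHIVA livers.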

How the results depend on the processing

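Over the 8 tested members and all alternatives, 133 of 136 log2 fold changes kept their direction and stayed past no threshold, and 0 members were called under any of them. The 3 exceptions were all Birc5, at -0.21 with array weights, -0.13 without WT replicate 3 and -0.38 without SHIVA replicate 2. The adjusted p of Ccnb2 lay between 0.0636 and 0.342. Its log2 fold change lay between 0.54 and 0.98, that of Mki67 between 0.56 and 1.37, of Ccna2 between 0.33 and 1.27, of Mcm5 between 0.36 and 1.08 and of Mcm6 between 0.43 and 0.79. The median over the members was 0.34 with normexp, 0.50 with the mean signal and 0.50 with the authors' table, and the median of all genes stayed between -0.02 and 0.01. The members with every SHIVA liver above every WT liver numbered 4 to 5 of 8 with single mice left out, beside 7.1% to 14.5% of all genes. The highest count came without SHIVA replicate 4. With a filter on all 7 arrays the count was 3 of 6, beside 5.97% of all genes.

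The count of genes called over all genes was 142 with the mean signal, 142 with the authors' table, 13 with no filter, 229 with array weights and 0 with the methods' t-test. In the same order the count of other cell cycle genes called, a label that here includes the growth list, was 2, 2, 0, 2 and 0. With single mice left out the count for all genes went from 4, with WT replicate 1 dropped, to 397, with WT replicate 3 dropped. It lay between 0 and 4 for other cell cycle genes, and the cause of these shifts in genes called was not tested. Between 12 and 24 other cell cycle genes then had every SHIVA liver above every WT liver, as did 7.1% to 14.5% of all genes. Leaving out a mouse can only keep or raise that count. Ccn2 passed under 7 of 10 other alternatives. With the replicate number as a block, 32 genes and 0 other cell cycle genes were called, Ccn2 had an adjusted p of 0.0885 and no member was called. SHIVA replicate 4 has no WT liver of its number and so did not enter the block contrast. The fold changes therefore equalled those without that liver, with 1.37 for Mki67 and 1.53 for Ccn2 in both fits. Same-numbered WT and SHIVA livers deviated together with correlations of -0.05, 0.01 and 0.24, and differently numbered ones with -0.20 to 0.20. These values do not settle whether the numbers pair the samples, and the main fit was unpaired. Genes near background, Top2a and Ccnb1 first, could not be compared between genotypes at these signals.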
